A study of Mus musculus with 6 samples.

Results

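The 10 genes described here are Tnfaip3, Tnfaip2, Tnip1, Tnip3, Traf1, Traf2, Traf6, Birc2, Birc3 and Irak3, which encode A20, the ABIN proteins that bind it, TRAF adaptors, cellular inhibitors of apoptosis (cIAPs), the inhibitory IRAK family member IRAK-M and the TNF-induced protein TNFAIP2. They were found by symbol among the 23282 symbols of the deposited table, and each is represented by its transcript with the highest mean over the 6 columns. All 10 were found, and 9 had the mean of at least 10 reads needed for the tests. The exception was Tnip3, with a mean of 9.33 reads.

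Poly(A) RNA had been sequenced from macrophages that thioglycollate had drawn into the peritoneum of C57BL/6 females. The cells had been given siRNA against Smyd5 (siSmyd5), siRNA against Phf2 (siPhf2) or control siRNA (siCtl) for 48 hours, and then KLA (Kdo2-lipid A, a defined lipopolysaccharide that acts on TLR4) at 100 ng per ml or vehicle for 4 hours. Each of the 6 combinations of siRNA and agent was 1 library, so no group had a replicate. The labels do not tell animals or cultures apart. The p-values below come from fits in which the effects of siRNA and agent add up. They set an effect against what departs from that sum in these libraries, with information shared across genes, and not against replicates. A KLA response that differed between arms would count there as spread.

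When TLR4 or a TNF receptor is engaged, TRAF proteins and cIAPs build ubiquitin chains that recruit the kinases upstream of NF-kB, and NF-kB then switches on genes that take this signal down again. A20, an enzyme that edits ubiquitin, is the best known of these, and it acts with ABIN proteins that bind ubiquitin chains. IRAK-M limits signalling closer to the receptor, at the step between MyD88 and TRAF6. Macrophages are among the cells in which this feedback is best studied, and it is linked there to endotoxin tolerance.

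Some libraries stood apart before any gene was considered. The siPhf2-labelled libraries held 119144 (KLA) and 192420 (vehicle) reads outside the ribosomal RNA precursor Rn45s, which took 71.6% and 66.7% of their reads, while the other 4 libraries held at least 910906 such reads and at most 1.2% Rn45s. For siCtl and siPhf2, whole reads came out only with the tag total printed on the other column of the same agent, so either names or totals were exchanged, and the arms are called by their labels. Smyd5 had 14.2 and 5.95 CPM in the siSmyd5-labelled KLA and vehicle libraries, against 12.9 and 18 CPM in the siCtl-labelled ones, and Phf2 had 57.7 and 118 CPM in the siPhf2-labelled libraries, against 53.2 and 46.4 CPM. By the labels a lower target was thus seen only for Smyd5 under vehicle. With the siCtl and siPhf2 names exchanged, Phf2 in the siPhf2 arm would be lower with vehicle (46.4 against 118 CPM). With KLA it would be about level (53.2 against 57.7 CPM). The 57.7 and 118 CPM rest on 8 and 29 reads. The 14.2 and 5.95 CPM of Smyd5 rest on 20 and 9 reads. No direction below is drawn from a knockdown. CPM here means a gene's reads over the library size after TMM scaling (an edgeR scaling that sets most genes equal between libraries). All 9 macrophage markers found in the table had reads in every library.

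The promoter windows of the genes are given first, because NF-kB acts through short DNA sites. RefSeq windows on GRCm38.p6, from 250 bases before to 50 after a gene's start, were found for all 10 genes (13 windows). A form of the kB site, read as 3 Gs, any 2 bases, 2 Ts, any base and 2 Cs, was searched on both strands. They were present in the windows of 4 of the 10 genes, Tnfaip3, Tnip1, Tnip3 and Traf2, against 5.48% of the 27025 genes with a window. The windows below, each 5′ to 3′ on the strand of its gene, are those of Tnfaip3 (chr10:19015361-19015660, minus strand) and Tnip1 (chr11:54962891-54963190, minus strand), with the matching letters in capitals. That of Traf1 (chr2:34961723-34962022, minus strand), which with Tnfaip3 rose most with KLA, is shown beside them and had no match.
Tnfaip3: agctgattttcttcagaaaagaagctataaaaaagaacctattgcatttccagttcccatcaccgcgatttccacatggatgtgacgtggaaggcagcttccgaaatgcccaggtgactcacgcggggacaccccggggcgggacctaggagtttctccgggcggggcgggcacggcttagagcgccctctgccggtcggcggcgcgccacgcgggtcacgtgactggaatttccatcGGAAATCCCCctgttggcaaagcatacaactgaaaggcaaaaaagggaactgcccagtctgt
Tnip1: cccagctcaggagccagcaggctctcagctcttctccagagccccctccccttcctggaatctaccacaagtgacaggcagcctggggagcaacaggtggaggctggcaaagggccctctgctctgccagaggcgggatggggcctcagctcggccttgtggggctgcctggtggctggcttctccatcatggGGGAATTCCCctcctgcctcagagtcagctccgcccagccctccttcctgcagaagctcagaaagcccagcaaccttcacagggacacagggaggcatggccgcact
Traf1: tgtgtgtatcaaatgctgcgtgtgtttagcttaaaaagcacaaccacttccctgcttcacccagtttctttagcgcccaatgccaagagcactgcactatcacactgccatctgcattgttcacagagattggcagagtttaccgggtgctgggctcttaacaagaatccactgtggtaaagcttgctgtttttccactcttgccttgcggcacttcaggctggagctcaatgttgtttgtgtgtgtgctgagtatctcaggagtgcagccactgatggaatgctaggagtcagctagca

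In Tnfaip3 the match began 12 bases before the start, on the opposite strand, and in Tnip1 it began 57 bases before the start and read the same on both strands. In Tnip3 (window chr6:65590148-65590447, plus strand) it began 54 bases before the start, on the opposite strand. In Traf2 (window chr2:25546891-25547190, minus strand) it began 31 bases after the start. Both are shown with their neighbouring bases.
Tnip3: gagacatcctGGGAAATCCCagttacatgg
Traf2: gcggcagcggGGGTGTTTCCcggcgagcg
Tnfaip3 had another window, chr10:19011914-19012213 on the minus strand, without a match. Its windows lie as far apart as the starts of its transcripts NM_009397 and NM_001166402. By this spacing the match goes with NM_009397, whereas the Tnfaip3 values below are those of NM_001166402. For Tnip1 only the window shown was found. Its transcripts start at mm9 position 54769624 (NM_001199275, used below) or 54776442 (NM_021327 and NM_001199276). Which of these starts the window belongs to was not settled. A match is only a match of letters, and a window with none says nothing about sites elsewhere. Of these 4 genes Tnfaip3 and Tnip1 rose several-fold with KLA, Traf2 rose less, and Tnip3 was too low to be tested, as the values below show. Traf1, Tnfaip2, Irak3 and Birc3, whose windows held no match, rose too.

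KLA raised 7 of the 9 tested genes averaged over the 3 siRNA arms, and none fell. By the same test 11.2% of all 7995 genes tested rose and 4.6% fell. The median log2 fold change of the 9 genes was 1.63, against −0.03 over all genes tested. Traf1 and Tnfaip3 rose most, Tnip1, Tnfaip2 and Irak3 rose by an intermediate amount, and Birc3 and Traf2 rose least. Traf6 and Birc2 did not pass. The averaged effects come from 1 edgeR quasi-likelihood fit of siRNA and agent to all 6 libraries, with p-values adjusted over all genes tested (Benjamini-Hochberg). The standard errors printed with them were worked back from the test, as the log2 fold change over the square root of its F statistic. They are not a spread between replicates. In 8 of the 10 genes every KLA library lay above every vehicle library. Counted over tested genes these were 7 of 9, against 10.7% of all genes tested. Fewer cells of a type and less RNA per cell cannot be told apart in such bulk libraries.

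**Figure D1:**
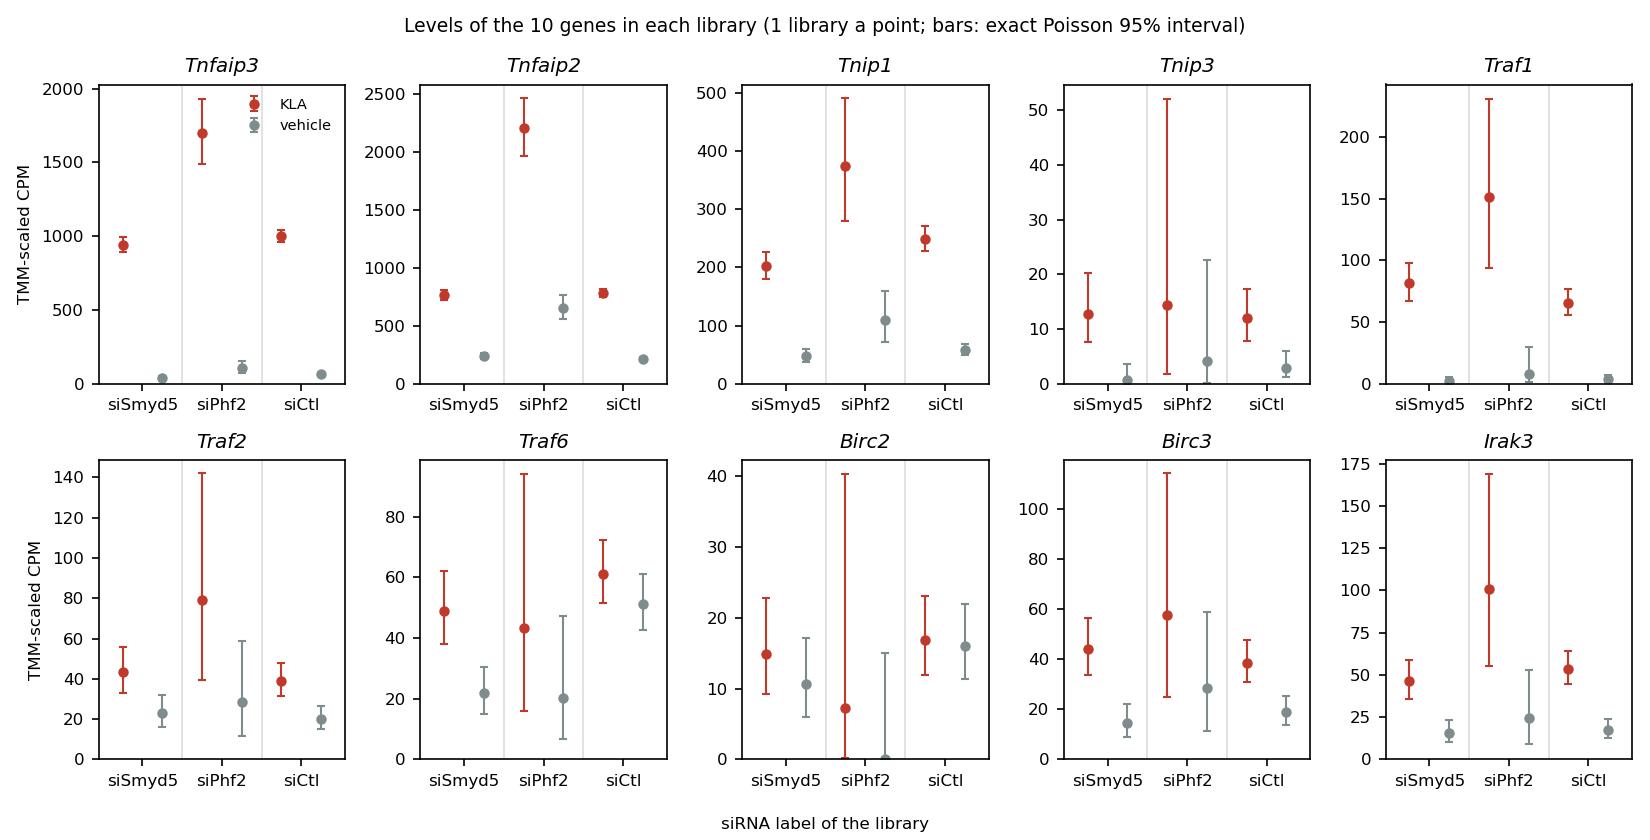
Level of each of the 10 genes in each of the 6 libraries, in TMM-scaled CPM, with the siRNA label on the x axis and KLA (red) left of vehicle (grey); points are single libraries and bars are exact Poisson 95% intervals, which cover counting error only. The KLA points lie above all vehicle points in 8 of 10 genes, the exceptions being Traf6 and Birc2, and the siPhf2-labelled points have the widest bars.

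Tnfaip3 (NM_001166402, mm9 chr10:18720717-18731769, minus strand) encodes A20, which removes and remodels ubiquitin chains on signalling proteins. It had 940, 1702 and 1003 CPM in the siSmyd5-, siPhf2- and siCtl-labelled KLA libraries, against 41.6, 106 and 62.4 CPM in the vehicle libraries of the same arms. The lowest KLA value was thus far above the highest vehicle value, and the siPhf2-labelled library was the highest under both agents. KLA over vehicle was 22.6-fold in the siSmyd5-labelled arm (exact Poisson 95% interval 17.5 to 29.5), 16.1-fold in the siPhf2-labelled arm (10.7 to 25.2) and 16.1-fold in the siCtl-labelled arm (13.6 to 19.1). Averaged over arms the log2 fold change was 4.18 (standard error 0.22, adjusted p = 4.25e-11), the 65th highest of all genes tested. The second transcript in the table, NM_009397, gave nearly the same reads (1297, 233 and 2219 with KLA, against 60, 24 and 151 with vehicle), so the table does not separate them.

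Tnip1 (NM_001199275, mm9 chr11:54724289-54769624, minus strand) encodes ABIN1, which binds ubiquitin chains and works with A20. It had 202, 375 and 249 CPM in the siSmyd5-, siPhf2- and siCtl-labelled KLA libraries, against 47.6, 110 and 58.7 CPM with vehicle. The groups did not overlap. The log2 fold change was 2.02 (standard error 0.2, adjusted p = 1.9e-07), and the increase was 4.26-fold in the siSmyd5-labelled arm (3.28 to 5.59), 3.42-fold in the siPhf2-labelled arm (2.11 to 5.66) and 4.25-fold in the siCtl-labelled arm (3.53 to 5.14). Tnip3 (NM_001001495, mm9 chr6:65540392-65584034, plus strand) encodes the related ABIN3 and was the lowest of the 10 genes. It had 18, 2 and 27 reads in the KLA libraries, against 1, 1 and 7 with vehicle, and was below the read minimum. KLA over vehicle was 19.3-fold (3.06 to 806) in the siSmyd5-labelled arm and 4.17-fold (1.77 to 11.3) in the siCtl-labelled arm. In the siPhf2-labelled arm both libraries were under the floor of 3 reads, and no fold is given. With a minimum of 1 read Tnip3 rose (log2 fold change 2.53, standard error 0.55, adjusted p = 7.99e-05). It also entered the test at the minimum of 10 reads when libraries were left out. It then passed without the siPhf2-labelled KLA library (2.57, adjusted p = 0.000133), the siPhf2-labelled vehicle library (2.56, 0.000106) or both (2.56, 0.000406), and did not pass without the siSmyd5-labelled vehicle library (1.95, 0.419).

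Tnfaip2 (NM_009396, mm9 chr12:112680872-112693229, plus strand) was named, like Tnfaip3, for its induction by TNF, but its product is related to the exocyst and is known for promoting thin membrane tubes between cells. It had 764, 2207 and 780 CPM in the siSmyd5-, siPhf2- and siCtl-labelled KLA libraries, against 241, 654 and 211 CPM with vehicle. Here the siPhf2-labelled vehicle library came close to the other KLA libraries, although the groups still did not overlap. The log2 fold change with KLA was 1.77 (standard error 0.18, adjusted p = 4.33e-07). The single-arm values were 3.18-fold (2.82 to 3.59), 3.37-fold (2.78 to 4.11) and 3.7-fold (3.35 to 4.09), the narrowest intervals among the 10 genes.

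Among the TRAF adaptors the responses ranged from among the largest to among the smallest. Traf1 (NM_009421, mm9 chr2:34798778-34817292, minus strand), a TRAF protein without a RING domain that binds TRAF2 and cIAPs, had 81.7, 151 and 65.7 CPM in the siSmyd5-, siPhf2- and siCtl-labelled KLA libraries, against 1.98, 8.13 and 3.69 CPM with vehicle. The vehicle values rested on 3, 2 and 9 reads. KLA over vehicle was 41.2-fold (13.8 to 203) in the siSmyd5-labelled arm, 18.6-fold (4.55 to 164) in the siPhf2-labelled arm and 17.8-fold (9.12 to 39.7) in the siCtl-labelled arm. These intervals overlap widely. The averaged log2 fold change was 4.49 (standard error 0.31, adjusted p = 1.8e-09), the 55th highest of all genes tested.

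Traf2 (NM_009422, mm9 chr2:25373502-25402414, minus strand) encodes the adaptor that brings cIAPs to TNF receptors. It had 43.3, 79.3 and 39 CPM in the siSmyd5-, siPhf2- and siCtl-labelled KLA libraries, against 23.1, 28.4 and 20.1 CPM with vehicle. All KLA values were above all vehicle values, by a smaller margin than in Traf1. The log2 fold change was 0.99 (standard error 0.24, adjusted p = 0.00562). It did not pass with DESeq2 (adjusted p = 0.121) or with limma on log2 values (log2 fold change 0.78, adjusted p = 0.104). That limma fit adds 15.2 CPM to every value before the log2 step, which is near the level of such low genes. With 1 CPM added in its place Traf2 did not pass either (adjusted p = 0.141).

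Traf6 (NM_009424, mm9 chr2:101518597-101541131, plus strand) encodes the ubiquitin ligase that relays signals from MyD88 and IRAK kinases. It had 49, 43.3 and 61.2 CPM in the siSmyd5-, siPhf2- and siCtl-labelled KLA libraries, against 21.8, 20.3 and 51.3 CPM with vehicle. The groups overlapped, because the siCtl-labelled vehicle library was above 2 of the KLA libraries. KLA over vehicle was 2.25-fold (1.46 to 3.51) in the siSmyd5-labelled arm, 2.13-fold (0.541 to 8.82) in the siPhf2-labelled arm and 1.19-fold (0.931 to 1.53) in the siCtl-labelled arm. The averaged log2 fold change of 0.61 (standard error 0.23) did not pass, with an adjusted p of 0.0909. It passed with a minimum of 1 read (0.0441) and without the siPhf2-labelled KLA (0.0346) or vehicle library (0.0337). In the other alternatives run it did not pass, among them the fit without both siPhf2-labelled libraries (0.0574), limma on log2 values (0.211), DESeq2 (0.515) and the fits without a siSmyd5-labelled library (0.987 without KLA and 0.986 without vehicle).

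The cIAP genes Birc2 and Birc3 lie next to each other on chromosome 9, on the same strand (mm9 chr9:7818226-7835255 and chr9:7848701-7873170). They are close paralogs whose reads the counting may have split, so both are uncertain. Birc3 (NM_007464), which encodes cIAP2, had 44, 57.7 and 38.6 CPM in the siSmyd5-, siPhf2- and siCtl-labelled KLA libraries, against 14.5, 28.4 and 18.9 CPM with vehicle, with no overlap. Its log2 fold change was 1.23 (standard error 0.25, adjusted p = 0.00152), but it did not pass with DESeq2 (0.0535) or limma on log2 values (0.0806). Birc2 (NM_007465), which encodes cIAP1, had 14.9, 7.21 and 16.9 CPM in the KLA libraries, against 10.6, 0 and 16 CPM with vehicle. KLA over vehicle was 1.41-fold (0.701 to 2.89) in the siSmyd5-labelled arm and 1.05-fold (0.656 to 1.69) in the siCtl-labelled arm. In the siPhf2-labelled arm it had 1 read with KLA and 0 with vehicle, and no ratio is given. The averaged log2 fold change was 0.26 (standard error 0.33, adjusted p = 0.7).

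Irak3 (NM_028679, mm9 chr10:119578710-119638593, minus strand) encodes IRAK-M, a member of the IRAK family without kinase activity. It had 46.2, 101 and 53.7 CPM in the siSmyd5-, siPhf2- and siCtl-labelled KLA libraries, against 15.9, 24.4 and 17.6 CPM with vehicle. Every KLA value was at least as high as 46.2 CPM and every vehicle value at most 24.4 CPM. The increase was 2.91-fold in the siSmyd5-labelled arm (1.8 to 4.86), 4.14-fold in the siPhf2-labelled arm (1.49 to 13.1) and 3.04-fold in the siCtl-labelled arm (2.13 to 4.42). The averaged log2 fold change was 1.63 (standard error 0.24, adjusted p = 3.89e-05).

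**Figure D2:**
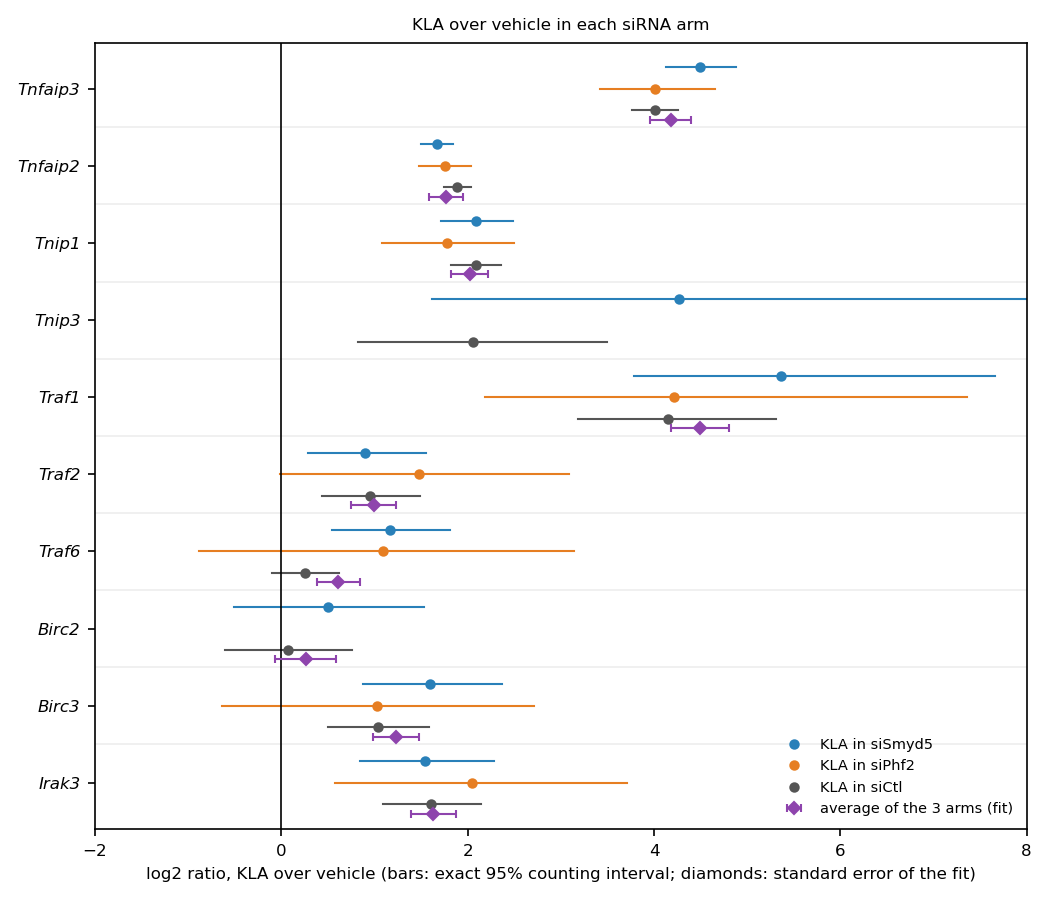
Log2 ratio of KLA over vehicle for each gene in the siSmyd5- (blue), siPhf2- (orange) and siCtl-labelled (dark grey) arms with exact 95% counting intervals, and the average of the 3 arms from the edgeR fit with its standard error (purple diamonds). That standard error was worked back from the test statistic and is not a spread between replicates. The intervals of the 3 arms overlap in each gene with a ratio in all 3, Tnip3 and Birc2 have none in the siPhf2-labelled arm, and the bar of Tnip3 that meets the frame runs on beyond it.

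Tnfaip3, Tnfaip2, Tnip1, Traf1 and Irak3 also rose with DESeq2 and with limma on log2 values, and each time that any 1 library was left out. Traf2 and Birc3 did not pass without either siCtl-labelled or either siSmyd5-labelled library, with adjusted p between 0.133 and 0.489. The averages do not depend on which of the siCtl and siPhf2 labels is right, because both agents of an arm would move together.

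In single arms, genes were called by size where the log2 ratio with 2 reads added was at least 1 and the counting interval excluded equality. By this rule 7 of the 9 genes were higher with KLA in the siSmyd5-labelled arm, 5 in the siPhf2-labelled arm and 5 in the siCtl-labelled arm, and none was lower. Among all genes tested 8.68%, 8.42% and 6.92% were called higher in these arms, and 3.48%, 6.88% and 2.41% lower. The 2 genes called only under the siSmyd5 label were Traf6 and Birc3. Birc3 missed the rule in the siCtl-labelled arm narrowly, at a log2 ratio of 0.98. The 3 KLA responses could not be tested against each other, because 1 library per group leaves no residual spread.

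Per kilobase of transcript the genes covered a wide range of levels. Under KLA the medians over the 3 arms were 232 CPM per kilobase for Tnfaip3 and 219 for Tnfaip2, whose ranges (217 to 393 and 215 to 620) overlapped. Tnip1 followed with 88.6 CPM per kilobase and Traf1 with 35.3, each with a range clear of its neighbours above. Irak3 followed with 18.2, and its range (15.6 to 34.1) overlapped those of Traf1 (28.4 to 65.4), Birc3 (median 15.7, range 13.8 to 20.6) and Traf2 (median 14.5, range 13.1 to 26.6). Traf6 (8.97) stood below these without overlap. Birc2 (4.76) and Tnip3 (3.4) were lowest, and their ranges overlapped. Under vehicle the order differed: Tnfaip2 was first at 67.6 CPM per kilobase and Tnip1 second at 20.8. Tnip1 was ahead of Tnfaip3 at 14.4, with overlapping ranges (16.9 to 39 and 9.62 to 24.4). Traf1 at 1.6 had a median below all others except Tnip3 at 0.764. The range of Traf1 (0.857 to 3.51) overlapped those of Tnip3 (0.176 to 1.08) and Birc2 (0 to 5.11). The length is that of the whole transcript, whereas the column headers refer to coding sequence.

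The genes most like them across the 6 libraries were found by the root mean square distance between log2 profiles centred on their own means. Before the log2 step 2 reads were added, which weighs on Traf1, with 3, 2 and 9 reads in its vehicle libraries. Tnfaip3 and Traf1 were each other's nearest gene among the 7995 tested, at a distance of 0.149 log2 units. Next to Tnfaip3 came the IkB inhibitor Nfkbia (0.194) and the adhesion molecule Icam1 (0.22), which were also the next nearest to Traf1 (0.236 and 0.226). Birc3 was nearest to the plakophilin Pkp4 (0.101), the zinc finger factor Vezf1 (0.105) and the transcriptional co-regulator Cited2 (0.112). Irak3 was nearest to the kinase homologue Stk40 (0.133), the membrane protein Dcbld2 (0.133) and the transglutaminase Tgm2 (0.151). All 6 points of each profile share library depth and scaling, so these distances are a description.

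Other genes of the pathway are given by list, beside the 11.2% of all genes tested that rose with KLA and the 4.6% that fell. Of 11 NF-kB subunits and IkB proteins all 11 rose, led by the inhibitors Nfkbie (log2 fold change 5.49) and Nfkbid (4.95). Of 10 tested other feedback genes 6 rose, led by the cytokine signalling inhibitor Socs3 (5.04) and the RNase Zc3h12a (3.27), and 2 fell, Tnfaip8l2 (−1.45) and the phosphatase Dusp1 (−1.09). Of 11 genes of the TNF receptor complex and other IAPs 4 rose and 0 fell, led by the receptor Cd40 (3.97) and the caspase-8 regulator Cflar (3.48). Of 10 tested other TRAF and TRAF-binding genes 5 rose and 0 fell, led by the kinase Ikbke (1.36) and the TRAF-binding protein Tank (1.35).

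The lists were not tested against each other. Of 16 genes from TLR4 to the IKK kinases 2 rose, the co-receptor Cd14 (log2 fold change 1.97) and the adaptor Myd88 (1.21; adjusted p = 0.0852 with limma on log2 values), and 2 fell, the adaptor Ticam1 (−0.86) and Tlr4 itself (−0.75). Of 13 A20 partners and enzymes of linear or K63-linked ubiquitin 1 rose, the ligase Rnf31 (1.38), and 1 fell, the deubiquitinase Usp21 (−1.25). These shares of risers, 2 of 16 and 1 of 13, are near that over all genes. The median log2 fold change was 3.14 for the NF-kB and IkB list, 1.24 for the feedback list, 0.79 for the TRAF list, 0.4 for the TLR4 list, 0.17 for the TNF receptor list and 0.06 for the A20 partner list. None of the 5 named falls passed with DESeq2 or limma on log2 values, with adjusted p between 0.0569 and 0.397.

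**Figure D3:**
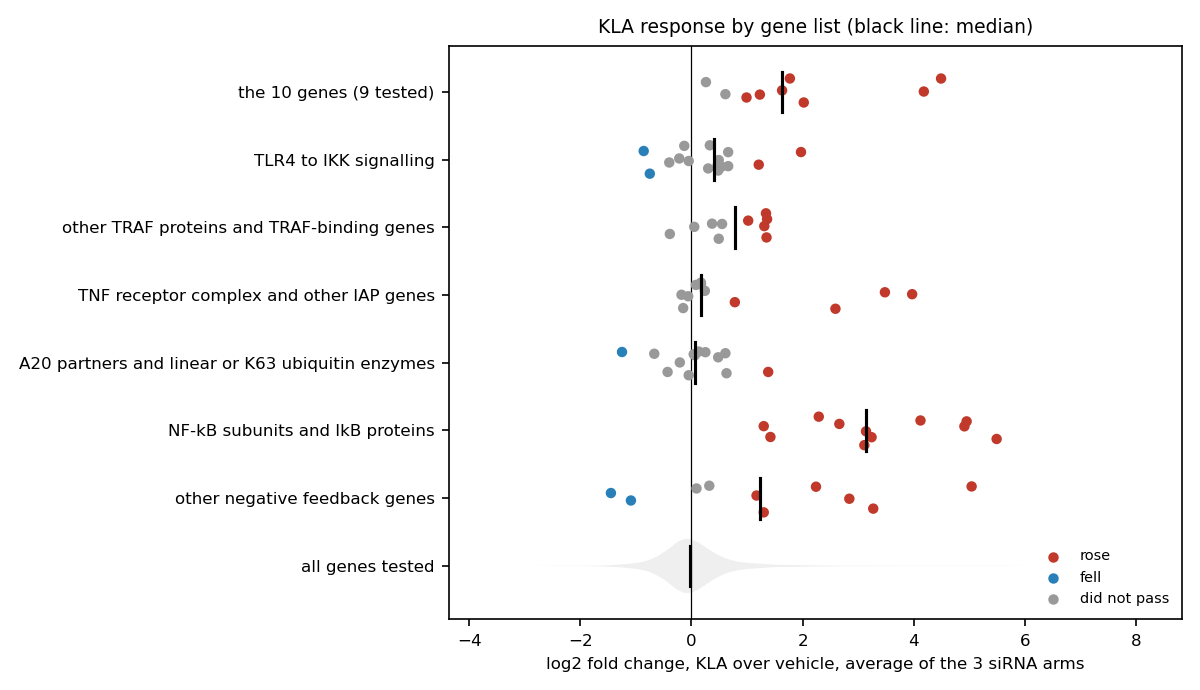
Averaged log2 fold change of KLA over vehicle for the 9 tested genes and for 6 lists of other pathway genes, 1 point per gene, coloured by whether it rose, fell or did not pass in the edgeR fit, with all 7995 genes tested as a grey density at the bottom. The median of the 9 genes (1.63) lies between those of the NF-kB and IkB list (3.14) and the other feedback genes (1.24).

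Whether the siSmyd5 label changed these genes was asked over both agents. None of the 9 tested genes rose or fell. Of all genes tested 2.74% rose and 3.65% fell, so that 0 of 9 is near the share over all genes. At an unadjusted p under 0.05 only Traf6 was lower, and DESeq2, limma-voom and limma on log2 values called none of the 9 either, DESeq2 giving Birc2 no adjusted p. With the siCtl and siPhf2 names exchanged, Tnfaip3 (log2 fold change −1.03), Tnfaip2 (−1.49) and Tnip1 (−1.02) were lower and passed. The averaged log2 fold changes ran between −0.71 for Traf6 and 0.22 for Traf1, with a median of −0.2, against 0 for all genes. Of the other pathway genes only Birc6, a giant IAP protein, passed. It fell by 0.86 on the log2 scale (adjusted p = 0.0364; 0.556 with DESeq2 and 0.765 with limma on log2 values), and it did not pass without any 1 of the siCtl- or siSmyd5-labelled libraries (adjusted p between 0.997 and 1).

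Traf6 differed most. From the levels given above, it stood at 0.801 of control (0.591 to 1.08) under KLA and at 0.425 (0.281 to 0.628) under vehicle, where it was the only one of the 9 genes called lower by size, with 4.99% of all genes tested called lower. None was called higher under vehicle (2.41% of all genes tested) or called either way under KLA (1.73% higher and 3.6% lower). The averaged log2 fold change of −0.71 (standard error 0.25) did not pass, with an adjusted p of 0.083. It passed without either siPhf2-labelled library (adjusted p = 0.0103 without KLA and 0.00976 without vehicle) and without both (−0.72, adjusted p = 0.013), and it stood at 0.2 with the siCtl and siPhf2 names exchanged. Log2 ratios ran with transcript length in the siSmyd5 contrasts (Spearman correlation −0.456 under vehicle over 7995 genes), and Traf6, at 5466 bases, is the longest of the 10. With the median of genes of like length subtracted, its log2 ratio under vehicle was −0.87 in place of −1.18, and it was no longer called.

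Tnfaip3 stood at 0.937 of control (0.875 to 1) under KLA and at 0.668 (0.49 to 0.901) under vehicle in the siSmyd5-labelled libraries. Tnip1 stood at 0.812 (0.702 to 0.938) and 0.811 (0.602 to 1.08), and Tnfaip2 at 0.981 (0.908 to 1.06) and 1.14 (0.995 to 1.31). The intervals of Tnfaip3 under vehicle and of Tnip1 under KLA lay below equality, though they cover counting error only. No ratio in these 3 genes reached a 2-fold difference, but the interval of Tnfaip3 under vehicle did. Traf1 stood at 1.24 (0.967 to 1.6) under KLA. Under vehicle its ratio of 0.537 (0.0935 to 2.15) rested on 3 and 9 reads, which leaves its resting level open to large differences in either direction.

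For the other genes the siSmyd5 ratios under KLA were 1.11 for Traf2 (0.787 to 1.56), 1.14 for Birc3 (0.81 to 1.6), 0.885 for Birc2 (0.493 to 1.55) and 0.86 for Irak3 (0.626 to 1.17). Under vehicle they were 1.15 (0.724 to 1.81), 0.77 (0.441 to 1.31), 0.661 (0.345 to 1.21) and 0.899 (0.522 to 1.52) in the same order. All of these intervals include equality. Summed mesothelial and fibroblast markers, 6 of 6 found in the table, were 592 and 545 CPM in the siSmyd5-labelled KLA and vehicle libraries, against 753 and 713 CPM in the siCtl-labelled ones. Of these markers Krt19 was at 0 in the siSmyd5- and siCtl-labelled KLA libraries, and Upk3b in the siSmyd5- and siPhf2-labelled vehicle libraries. Summed macrophage markers were 5126 and 4861 CPM in the siSmyd5-labelled KLA and vehicle libraries, against 4486 and 3869 CPM in the siCtl-labelled ones. The part of either marker set in these ratios was not tested.

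Between the siPhf2- and siCtl-labelled libraries, Tnfaip2 was the only one of the 9 genes to pass over both agents, and it rose, with a log2 fold change of 1.56 (standard error 0.22, adjusted p = 9.3e-05), and none fell. Of all genes tested 8.12% rose and 4.52% fell, so that 1 of 9 is near the share over all genes. Tnfaip2 was 2.83-fold higher (2.5 to 3.2) under KLA and 3.1-fold higher (2.58 to 3.71) under vehicle. It passed with DESeq2 (1.54e-05), with limma on log2 values (0.0144) and each time that 1 library was left out (adjusted p at most 0.0282).

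The direction for Tnfaip2 depends on the scaling and on the labels. Scaled to the library total, which Rn45s fills, it was lower at a log2 fold change of −0.6, but the median of all genes then stood at −2.26, so that it lay 1.66 above that median, as against 1.69 above it with TMM. Scaled to the total without Rn45s it was higher, at 1.09. Exchanging the names of the siCtl and siPhf2 columns turns its sign by construction, to −1.56.

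Tnfaip3, Tnip1 and Traf1 were higher under the siPhf2 label without passing. Their averaged log2 fold changes were 0.74, 0.72 and 1.19, with adjusted p of 0.064, 0.0765 and 0.0685. Tnfaip3 was 1.7-fold higher (1.48 to 1.94) under KLA and 1.69-fold (1.07 to 2.58) under vehicle, and Tnip1 1.5-fold (1.11 to 2) and 1.87-fold (1.19 to 2.84). Traf1 was 2.31-fold higher (1.39 to 3.66) under KLA, and 2.2-fold (0.231 to 10.6) under vehicle, where it had 2 reads against 9. With DESeq2's size factors in edgeR all 3 passed (adjusted p 0.0313, 0.0374 and 0.0399), and scaled to the total all 3 were lower. None of the 3 passed with DESeq2 itself (0.115, 0.133 and 0.186) or with limma on log2 values (0.0679, 0.079 and 0.154). With limma-voom Tnfaip3 passed (0.0394), and Tnip1 (0.0764) and Traf1 (0.0549) did not. With 1 library left out, Tnfaip3 and Traf1 passed only when it was the siPhf2-labelled vehicle library, and Tnip1 never did.

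By size 2 of 9 genes were higher under the siPhf2 label with KLA, Tnfaip2 and Traf1, beside 7.9% of all genes tested, and none was lower, beside 7.25%. Under vehicle 1 was higher, Tnfaip2, beside 10.8%, and 2 were lower, Traf6 and Birc2, beside 8.87%. Traf6 had 6 and 5 reads in the siPhf2-labelled KLA and vehicle libraries and stood at 0.707 of control (0.255 to 1.58) and 0.396 (0.126 to 0.95). Birc2 had 1 and 0 reads there, against 38 and 39 in the siCtl-labelled libraries. With the floor of 3 reads in place of 0, Birc2 stood at no more than 0.762 of control under vehicle, which is a bound and not a measured level. The ratio from its 0 reads was 0, with an exact counting interval from 0 to 0.983. Its call there came from a log2 ratio of −3.54 with 2 reads added. Under KLA Birc2 stood at 0.428 (0.0106 to 2.53), so a 2-fold difference was not shown at this depth. In the averaged fit neither passed (adjusted p 0.229 for Traf6 and 0.151 for Birc2).

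The remaining genes had wide intervals under the siPhf2 label. The interval of Traf2 ran between 0.979- and 3.82-fold under KLA and between 0.541- and 3.14-fold under vehicle. Birc3 stood at 1.49-fold (0.625 to 3.08) and 1.51-fold (0.574 to 3.36), and Irak3 at 1.88-fold (0.998 to 3.28) and 1.38-fold (0.481 to 3.26). None was called. With DESeq2's size factors, and with length corrected, Traf2 (2.63-fold, 1.26 to 4.93, length corrected) and Irak3 (2.4-fold, 1.28 to 4.19) were called higher under KLA. With length corrected, Tnip1 was also called higher under vehicle and Birc2 was no longer called lower. Log2 ratios ran with transcript length here too (Spearman correlation 0.251 under KLA and 0.354 under vehicle over 7995 genes). A count of 3 reads corresponded to 21.6 CPM in the siPhf2-labelled KLA library and 12.2 CPM in the vehicle one, against 1.33 and 1.23 CPM in the siCtl-labelled libraries. In the siPhf2-labelled libraries Birc2 and Tnip3 lay below that floor under both agents and Traf1 under vehicle.

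**Figure D4:**
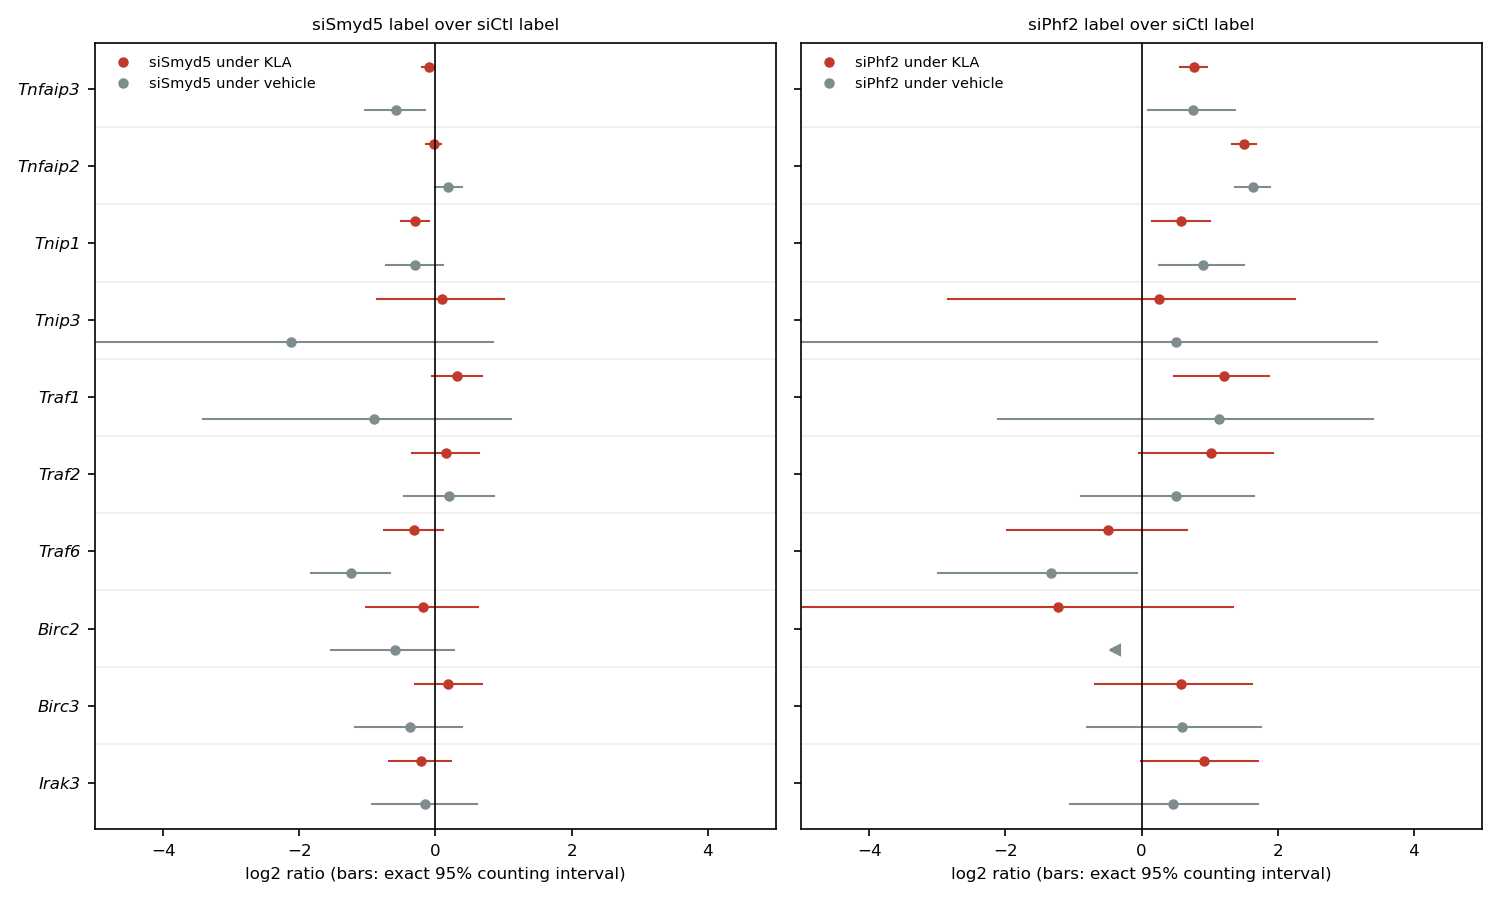
Log2 ratio of each gene under the siSmyd5 label (left) and the siPhf2 label (right) over the siCtl label, with KLA in red and vehicle in grey and exact 95% counting intervals; the triangle for Birc2 marks its bound against a floor of 3 reads, and bars that meet the frame run on beyond it. Tnfaip2 stands at 2.83-fold (KLA) and 3.1-fold (vehicle) under the siPhf2 label, and Traf6 at 0.425 of control under vehicle and the siSmyd5 label.

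Of the 71 other pathway genes tested 13 (18.3%) rose under the siPhf2 label and 0 fell, by the averaged fit, beside 8.12% and 4.52% of all genes tested. They included Cd40 (log2 fold change 2.08) and Birc6 (1.69), the kinases Ikbke (1.67) and Ikbkb (1.4), Trafd1 (1.65), Trim30a (1.65), the RNA-binding protein Zfp36 (1.49), the NF-kB precursors Nfkb2 (1.33) and Nfkb1 (1.23), and Rnf31 (1.02). Of those named, Rnf31 and Trim30a did not pass with DESeq2, and these and Trafd1 and Cd40 did not pass with limma on log2 values. Scaled to the library total, which moved the median of all genes to −2.26, all 13 were lower, and exchanging the siCtl and siPhf2 names turns every sign by construction. Summed mesothelial and fibroblast markers were 288 and 410 CPM in the siPhf2-labelled KLA and vehicle libraries, against 753 and 713 CPM in the siCtl-labelled ones. Summed macrophage markers were 5798 and 5275 CPM there, against 4486 and 3869 CPM. The part of either marker set in these differences was not tested. The siSmyd5 and siPhf2 contrasts share the siCtl-labelled libraries.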

How the data were processed

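The deposited table holds 1 signal value per RefSeq transcript and library, which the authors scaled to 10000000 tags, per the file headers. HOMER and mm9 are named without a role in the submitters' processing notes. The aligner, the filters and the use of strand are not given in the labels or headers used here. Multiplying back gave whole reads (tolerance 0.02) for 100% of values, in the siCtl and siPhf2 columns only with each other's printed totals (2.43% and 1.13% with their own under vehicle). The test design assumed deposited counts, and was run on these recovered reads.

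Each gene was represented by its transcript with the highest mean. Of 23282 symbols, 7995 had a mean of at least 10 reads. One additive fit of siRNA and agent with 2 residual degrees of freedom was made with edgeR 4.0.16 (TMM scaling, quasi-likelihood test, 2-sided, Benjamini-Hochberg threshold 0.05), checked on simulated data. DESeq2 1.42.0 and limma 3.58.1 (limma-voom, and limma on log2 CPM values with a pseudocount of 15.2 CPM added first) were alternatives, with other scalings, filters and left-out libraries. Single libraries were compared by ratios with exact conditional Poisson 95% intervals (scipy 1.17.1), without a test; intervals and floors of 3 reads cover counting error only. 2 reads were added, in proportion to library size, before log2 ratios.

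All 10 genes are named. For the other pathway lists the rule named the 2 largest rises and 2 largest falls that passed, and for Tnfaip3, Traf1, Birc3 and Irak3 the 3 nearest profiles. The genes, lists and rules were chosen with earlier results of these data known.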

Additional observations from a re-analysis of the deposited data

How the results depend on the processing

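No paired analysis was possible because the labels give no replicate numbers and each group is 1 library. Leaving out a library has no counterpart in the single-library ratios. The averaged KLA rises of Tnfaip3, Tnfaip2, Tnip1 and Traf1 kept their direction and passed in every alternative in which they were tested, as did Irak3 except in limma with a pseudocount of 1 CPM (adjusted p = 0.0501). At a minimum of 50 reads Traf1 and Irak3 were not tested, which lowers the counts there. The cause was not tested for the other changes below.

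For KLA, 1261 genes passed in the edgeR fit, against 609 with DESeq2, 404 with limma on log2 values, 245 with its pseudocount at 1 CPM, 685 at a mean of at least 50 reads, 2005 without both siPhf2-labelled libraries and 407 to 2027 leaving out 1 library. Of the 10 genes 7 rose in that fit, 4 with the pseudocount of 1 CPM, 3 at 50 reads and 5 to 9 leaving out 1 library. For siSmyd5, 511 genes passed, against 5 with DESeq2, 17 with limma-voom, 0 with limma on log2 values at either pseudocount (490 and 445 at an unadjusted p under 0.05), 222 scaled to the total, 800 at 1 read, 101 at 50 reads, 1 with transcripts summed, 2030 with the siCtl and siPhf2 names exchanged, 2084 without both siPhf2-labelled libraries and 1 to 2162 leaving out 1 library. Of the 10 genes 0 fell, against 3 with names exchanged, 1 (Traf6) without both siPhf2-labelled libraries and 0 to 1 leaving out 1. For siPhf2, 1010 genes passed, against 488 with DESeq2, 642 with limma on log2 values, 206 with its pseudocount at 1 CPM, 7385 scaled to the total, 1710 to the total without Rn45s, 1525 at 1 read, 583 with transcripts summed and 215 to 1355 leaving out 1 library. Of the 10 genes 1 rose, against 2 with limma-voom, 4 with DESeq2's size factors, 0 scaled to the total, 3 at 50 reads, 0 with names exchanged and 1 to 3 leaving out 1 library; 0 fell, against 9 scaled to the total, 1 (Traf6) to the total without Rn45s and 1 (Tnfaip2) with names exchanged.

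By size in single libraries, a minimum of 50 reads left 4, 3 and 3 genes higher with KLA under the siSmyd5, siPhf2 and siCtl labels. Lower under siSmyd5 and vehicle were 3 with names exchanged and 0 with length corrected, and under KLA 2 with names exchanged. Under siPhf2 and vehicle 0 were higher scaled to the total, 2 with names exchanged and 2 with length corrected; 7 were lower scaled to the total, and 1 each with DESeq2's size factors, at 50 reads, with names exchanged and with length corrected. Under siPhf2 and KLA 4 were higher with DESeq2's size factors and with length corrected, 1 to the total without Rn45s and at 50 reads, and 0 to the total and with names exchanged; 8 were lower to the total and 2 with names exchanged.

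Exchanging the names turns every siPhf2 value by construction. Among called values, and for siSmyd5 averages with a call after the exchange, it turned Tnfaip2 (−1.49 averaged for siSmyd5; −1.56 averaged, −1.5 under KLA and −1.63 under vehicle for siPhf2), Traf6 (0.1 for siSmyd5 and 1.27 for siPhf2 under vehicle), Birc2 (3.54 for siPhf2 under vehicle) and Traf1 (−1.19 for siPhf2 under KLA). The siSmyd5 averages of Traf1 (−0.97), Traf2 (−0.63), Traf6 (0.2) and Birc2 (2.21) turned too, without a call. Scaled to the total, siPhf2 averages turned for Tnfaip3 (−1.45), Tnfaip2 (−0.6), Tnip1 (−1.46), Traf1 (−1.05), Traf2 (−1.37), Birc3 (−1.57) and Irak3 (−1.43), as did Tnfaip2 under vehicle (−0.44) and, under KLA, Tnfaip2 (−0.75) and Traf1 (−1.02). Depth limits Birc2, Tnip3 and vehicle Traf1 most, and the Birc2 value of 3.54 rests on a library with 0 reads.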
